A study of Mus musculus with 2 samples.

Results

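Leukocyte adhesion molecules of the endothelial surface are the subject here, and they were followed as 6 genes in the aortic endothelium of 1 old and 1 young mouse: Vcam1, Icam1, Icam2, Sele, Selp and Madcam1. They were taken by name from the 27998 genes counted in both libraries, and 5 of the 6 had at least 1 molecule counted. The animals were C57BL6/J mice, 18 months old in the first case and 8 weeks old in the second, and no other treatment or allele is given for either. The luminal face of each aorta, cleaned of adventitia, had been loosened with trypsin and scraped, and the freed cells were run through a droplet 3′ method that counts each captured transcript once by its unique molecular identifier (UMI). The old library held 3408 cell barcodes with a median of 4737 UMIs, and the young library 1366 barcodes with a median of 7558.5 UMIs. The libraries shared 11 barcode sequences. With 1 animal and 1 library per age nothing here has a replicate check, so old and young values are set side by side with no test. Every interval is an exact 95% interval that covers counting error only.

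These genes make the vessel wall sticky for white blood cells. P-selectin (Selp) and E-selectin (Sele) catch passing cells by their sugars and let them roll, after which VCAM-1 (Vcam1), ICAM-1 (Icam1) and ICAM-2 (Icam2), members of the immunoglobulin superfamily, hold them by their integrins. MAdCAM-1 (Madcam1) is the addressin of gut venules. ICAM-2 is known as a resting endothelial protein, while Vcam1, Icam1 and Sele are known as targets that NF-kB switches on in endothelium under inflammatory cytokines.

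The most counted genes, Vcam1 and Icam2, had no promoter sequence to show here. Promoter sequence is shown for 3 others. These are Icam1, lower in old cells of both endothelial subtypes, Sele, close to the limit of counting, and Madcam1, not counted at all. Each is the 250 bases before the start of the gene in RefSeq (GRCm38.p6), plus strand, at chr9:21015690-21015939, chr1:164047984-164048233 and chr10:79664309-79664558. Capitals mark matches on either strand to 5 motifs: the general NF-kB motif (GGG and CC with 5 bases between them), its palindromic form GGAAATTCC, the STAT motif TTCNNNGAA, the TATA box TATAAA and the AP-1 motif TGACTCA.
Icam1: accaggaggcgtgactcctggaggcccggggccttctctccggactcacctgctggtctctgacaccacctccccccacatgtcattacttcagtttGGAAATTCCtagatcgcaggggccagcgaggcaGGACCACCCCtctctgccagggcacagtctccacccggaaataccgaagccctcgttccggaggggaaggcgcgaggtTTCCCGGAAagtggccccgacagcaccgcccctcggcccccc
Sele: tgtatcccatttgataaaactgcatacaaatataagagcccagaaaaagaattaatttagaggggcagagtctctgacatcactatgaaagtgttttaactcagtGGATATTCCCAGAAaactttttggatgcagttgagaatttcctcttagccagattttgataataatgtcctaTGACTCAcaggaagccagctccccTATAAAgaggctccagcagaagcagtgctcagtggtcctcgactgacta
Madcam1: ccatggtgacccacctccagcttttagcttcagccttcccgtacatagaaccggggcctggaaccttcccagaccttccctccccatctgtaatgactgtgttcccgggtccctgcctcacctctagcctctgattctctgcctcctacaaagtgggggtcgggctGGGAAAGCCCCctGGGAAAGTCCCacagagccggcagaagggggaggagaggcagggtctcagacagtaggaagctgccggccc
Of the 6 genes, 4 were in the promoter table (Icam1, Sele, Selp and Madcam1), and all 4 held the general NF-kB motif, as did 45.8% of the 32817 mouse promoters of that length. Icam1 also held GGAAATTCC, found in 0.286% of promoters, and a TTCNNNGAA match 42 bases before its start. Sele held TTCNNNGAA, which overlapped its general NF-kB match, together with TATAAA and TGACTCA. The share of all promoters was 7.01% for TTCNNNGAA, 12.4% for TATAAA and 4.46% for TGACTCA. A match is a run of letters and was not tested as a binding site.

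In the GENCODE vM21 annotation of GRCm38 both selectin genes lie on chromosome 1, Sele at chr1:164048234-164057677 and Selp at chr1:164115264-164150026. Icam1 (chr9:21015985-21028817) is followed by its relatives Icam4, 556 bases away, and Icam5. Vcam1 lies at chr3:116109949-116129688, Icam2 at chr11:106377656-106388075 and Madcam1 at chr10:79664559-79668537. Antisense genes overlap Vcam1 (Gm43109), Icam1 (Gm47079) and Selp (Gm16587 and Gm16548), and whether counting used strand is not given in the sources used here. Gm43109 had 9 old and 5 young UMIs, Gm16587 had 2 old and 0 young UMIs, and Gm16548 had 5 old and 2 young UMIs. No 50-base stretch from the last 500 bases of the 6 genes' transcripts occurred in a transcript of another gene.

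Cells were sorted into classes by clustering without these 6 genes. Endothelial-like cells, in which all 12 endothelial markers were seen, were 2432 of 3330 old cells (73.0%, 71.5 to 74.5%) and 1096 of 1359 young cells (80.6%, 78.4 to 82.7%). Of these, 433 old and 452 young cells carried Coch, Sost and Adra2a, 1950 old and 629 young cells carried Bcan, Isl1 and Nkx2-3, and 49 old and 15 young cells formed a cluster in which neither trio led the other by 1.5 times, called cells of neither program here. That cluster does not lack the trios: Coch, Sost and Adra2a summed to 248 CPM in its old cells, against 169 CPM in old Bcan/Isl1/Nkx2-3 cells. The subtypes are made of different clusters in the 2 libraries: clusters 0 (old) and 1 (young) hold most Coch/Sost/Adra2a cells, and clusters 2, 3 and 4 (old) and 11 (young) most Bcan/Isl1/Nkx2-3 cells. Levels (CPM) are UMIs of a gene per 1000000 UMIs of all genes, with the cells of each class pooled within a library.

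The selectin Selp was counted in all 3 endothelial groups. Cells of neither program had 286 CPM in the old library (238 to 340) and 281 CPM in the young library (189 to 400), where 1 cell gave 12 of the 30 UMIs. Platelet markers summed to 774 CPM in those old cells, with 1 of the 49 cells at 5 or more UMIs, and to 0 in those young cells, and their part in the Selp level was not tested. In Coch/Sost/Adra2a cells Selp had 147 CPM in the old library (132 to 162) and 180 CPM in the young library (168 to 192). In Bcan/Isl1/Nkx2-3 cells it had 130 CPM in the old library (124 to 137) and 117 CPM in the young library (108 to 127). Coch/Sost/Adra2a cells were thus higher, by 1.54-fold in the young library (1.39 to 1.71) and by 1.12-fold in the old library (1.00 to 1.26), where the intervals of the levels overlap. Selp was the 1 gene of the 4 that could be measured in both subtypes (at least 20 UMIs over both) that passed a 1.5-fold difference in the young library, where 5.43% of all genes measured were higher by that much and 7.28% lower. With cells thinned to equal depth its log2 ratio was 0.53, below that limit. In the old library none of the 4 passed, against 5.19% of genes higher and 8.62% lower.

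Between the ages Selp differed in opposite directions in the 2 subtypes. The log2 ratio of old over young was -0.30 in Coch/Sost/Adra2a cells (-0.47 to -0.13) and 0.16 in Bcan/Isl1/Nkx2-3 cells (0.02 to 0.30), and over all endothelial-like cells it was -0.12 (-0.21 to -0.02). The pooled value changed sign, to 0.02, when cells with 2 or more UMIs of other classes' markers were left out. The old Bcan/Isl1/Nkx2-3 clusters were not alike in Selp. Cluster 4 had 151 CPM (139 to 163), cluster 2 had 126 CPM (117 to 136) and cluster 3 had 99.4 CPM (86.3 to 114). The young cells of cluster 11 had 116 CPM (107 to 126), an interval that overlaps those of clusters 2 and 3. The 22 old cells of cluster 11 had 192 CPM (118 to 297). Platelets also carry P-selectin. Platelet markers (5 of 5 seen in old cells, 4 of 5 in young cells with Ppbp at 0) summed to 43.5 CPM in old and 5.90 CPM in young endothelial-like cells. In endothelial-like cells with no UMI of any platelet marker, Selp stood at 139 CPM in the old library (133 to 146) and 150 CPM in the young library (143 to 158), close to the values over all such cells, 138 and 150 CPM. Those cells held 86.6% of old and 93.8% of young endothelial Selp UMIs.

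Sele, the selectin of inflamed endothelium, was counted in few cells. The old library held 23 UMIs in 19 cells and the young library 5 UMIs in 3 cells, all of them endothelial-like. None of these UMIs fell in Coch/Sost/Adra2a cells: 0 of 433 old cells, which allows a share of cells with a UMI of up to 0.693%, and 0 of 452 young cells, which allows up to 0.664%. These limits are on cells with a UMI and not on cells that express the gene. Bcan/Isl1/Nkx2-3 cells held 18 UMIs in the old library (1.58 CPM, 0.94 to 2.50) and 5 UMIs in the young library (0.99 CPM, 0.32 to 2.31), so the intervals overlap. The other 5 old UMIs came from 3 cells of neither program. Over all endothelial-like cells the old library was 3.22-fold higher (1.20 to 10.8), on 23 against 5 UMIs. Of the 5 young UMIs 3 came from 1 cell, and the log2 ratio was 1.69 with all cells and 2.88 without the richest cell of each library (21 against 2 UMIs). Every cell with a Sele UMI also held a Vcam1 UMI (19 of 19 old and 3 of 3 young), beside 85.9% of all old and 89.96% of all young endothelial-like cells. Of the same cells, 13 of 19 old and 3 of 3 young held Icam1, beside 52.1% of all old and 68.6% of all young endothelial-like cells. Selp was held by 15 of 19 old and 2 of 3 young, beside 47.8% and 59.2% of all such cells. These shares are without thinning, and the depth of the cells with a Sele UMI was not compared with that of the others.

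Madcam1 had 0 UMIs in 3408 old barcodes, which allows a share with a UMI of up to 0.0880%, and 0 UMIs in 1366 young barcodes, which allows up to 0.220%, and how many cells express it is not limited by this. A count of 0 puts its level under 0.156 CPM in the whole old library and under 0.239 CPM in the whole young library, taking 3 counts as the floor.

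Vcam1 differed between the endothelial groups. Cells of neither program had 2309 CPM in the old library (2170 to 2454) and 954 CPM in the young library (778 to 1158, 15 cells). Bcan/Isl1/Nkx2-3 cells had 760 CPM in the old library (744 to 776) and 742 CPM in the young library (719 to 766). Coch/Sost/Adra2a cells had 614 CPM in the old library (585 to 644) and 634 CPM in the young library (612 to 657). The summed levels thus stood in the same order in both libraries, but the first place rests on few cells. In the young library 8 of the 15 cells held a Vcam1 UMI and 1 cell gave 34 of the 102 UMIs. Without it the level was 697 CPM (541 to 883), an interval that overlaps those of both subtypes. In the old library 7 of the 41 cells deep enough to be thinned held 61.0% of the thinned UMIs, and the level was 1989 CPM (1858 to 2127) without the richest cell. The group itself held 9 old and 1 young cells under a stricter cell filter and 0 cells when the 6 genes were allowed into the clustering. The log2 ratio of Coch/Sost/Adra2a over Bcan/Isl1/Nkx2-3 cells was -0.31 in the old library (-0.38 to -0.23) and -0.23 in the young library (-0.30 to -0.16). In the old library this direction depended on how cells were grouped: the ratio was 0.18 when the 6 genes were allowed into the clustering and 0.01 under a stricter cell filter.

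The log2 ratio of Vcam1, old over young, was -0.05 in Coch/Sost/Adra2a cells (-0.13 to 0.04) and 0.03 in Bcan/Isl1/Nkx2-3 cells (-0.02 to 0.09), and both intervals hold 0. These values also moved with the grouping: in Coch/Sost/Adra2a cells the ratio was 0.42 when the 6 genes were allowed into the clustering, and in Bcan/Isl1/Nkx2-3 cells it was -0.13 without cells that carry 2 or more UMIs of other classes' markers. Over all endothelial-like cells Vcam1 had 780 CPM in the old library and 691 CPM in the young library, a log2 ratio of 0.17 (0.13 to 0.22). The make-up of the class differs with age: Coch/Sost/Adra2a cells held 19.3% of the UMIs of the 2 subtypes in the old library and 49.7% in the young library. Without the cells of neither program the ratio was 0.09 (0.04 to 0.13), with the young mix of the subtypes it was -0.0024, and without cells that carry 2 or more UMIs of other classes' markers it was -0.03.

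Icam1 was lower in the old library in both subtypes. Coch/Sost/Adra2a cells had 155 CPM in the old library (140 to 170) and 200 CPM in the young library (188 to 213), a log2 ratio of -0.37 (-0.54 to -0.21). Bcan/Isl1/Nkx2-3 cells had 165 CPM in the old library (157 to 172) and 209 CPM in the young library (197 to 222), a log2 ratio of -0.34 (-0.45 to -0.23). Over all endothelial-like cells the ratio was -0.31 (-0.39 to -0.22), while the median gene stood at 0.07, and it stayed between -0.36 and -0.27 over the 13 alternatives tried. Between subtypes the intervals hold 0: Coch/Sost/Adra2a over Bcan/Isl1/Nkx2-3 was -0.09 in the old library (-0.25 to 0.06) and -0.06 in the young library (-0.19 to 0.06).

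The old Bcan/Isl1/Nkx2-3 cells were not alike in Icam1. Their cluster 4 (540 cells) had 206 CPM (192 to 221), while clusters 2 (744 cells) and 3 (644 cells) had 142 CPM (132 to 153) and 137 CPM (122 to 154), and the young cells of cluster 11 (580 cells) had 212 CPM (199 to 225). The interval of cluster 4 overlaps that of the young cells, and those of clusters 2 and 3 lie below both. A further 22 old cells in cluster 11 had 241 CPM (156 to 355). The 31 young cells in cluster 3 had 121 CPM (64.5 to 207). In cluster 0, of Coch/Sost/Adra2a cells, 37 young cells had 159 CPM (99.7 to 241) and the old cells 154 CPM (140 to 170). Within these 3 clusters the old and young intervals overlap, on few cells of 1 age. A set of 16 immediate early and stress genes that react to tissue handling (Fos, Jun, Egr1, Atf3, Hspa1a and others, chosen after the data were seen) were all lower in old endothelial-like cells, with a sum of 4145 CPM in the old library and 8311 CPM in the young library. Among the same clusters their sum was 3035 CPM in cluster 4, 5676 CPM in cluster 2 and 3916 CPM in cluster 3, against 9099 CPM in young cluster 11. Among clusters 2, 3 and 4 Icam1 was highest where those genes were lowest. Cluster 9, the cells of neither program, had 212 CPM of Icam1 with 3103 CPM of those genes, and cluster 0 had 154 CPM with 3129 CPM. The 22 old cells of cluster 11 did not follow that order, with 241 CPM of Icam1 and 6378 CPM of those genes. In the young library the direction was the reverse. The young cells of clusters 0 and 3 had 3283 and 3458 CPM of those genes, with 159 and 121 CPM of Icam1. Those of clusters 1 and 11 had more of both, with 7901 and 9099 CPM of those genes and 201 and 212 CPM of Icam1. The part of the handling genes in the difference between the libraries was not tested.

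Icam2 stood at similar levels in the 2 subtypes. Coch/Sost/Adra2a cells had 909 CPM in the old library (874 to 946) and 1024 CPM in the young library (996 to 1052). Bcan/Isl1/Nkx2-3 cells had 930 CPM in the old library (912 to 948) and 1078 CPM in the young library (1050 to 1107). Cells of neither program were lower, at 695 CPM in the old library (620 to 777) and 505 CPM in the young library (379 to 659). The old over young log2 ratio was -0.19 over all endothelial-like cells (-0.22 to -0.15), -0.17 in Coch/Sost/Adra2a cells and -0.21 in Bcan/Isl1/Nkx2-3 cells, and it turned to 0.03 in Coch/Sost/Adra2a cells when cells with 2 or more UMIs of other classes' markers were left out.

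Counted as a family, the adhesion genes are too few for a share to be read against that of all genes. Of the 5 genes with at least 20 UMIs over the endothelial-like cells of both libraries, 1 (Sele) was higher in the old library by 1.5-fold and 0 were lower, against 9.23% of 12096 genes higher and 7.14% lower. In Coch/Sost/Adra2a cells 0 of 4 genes passed in either direction, against 8.55% of genes higher and 8.06% lower. In Bcan/Isl1/Nkx2-3 cells 1 of 5 passed (Sele, 18 against 5 UMIs, with an interval that holds equality), against 9% higher and 7.03% lower. The median log2 ratio of the genes was -0.12 over endothelial-like cells, -0.23 in Coch/Sost/Adra2a cells and 0.03 in Bcan/Isl1/Nkx2-3 cells, beside 0.07, 0.06 and 0.06 for all genes measured.

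**Figure D1:**
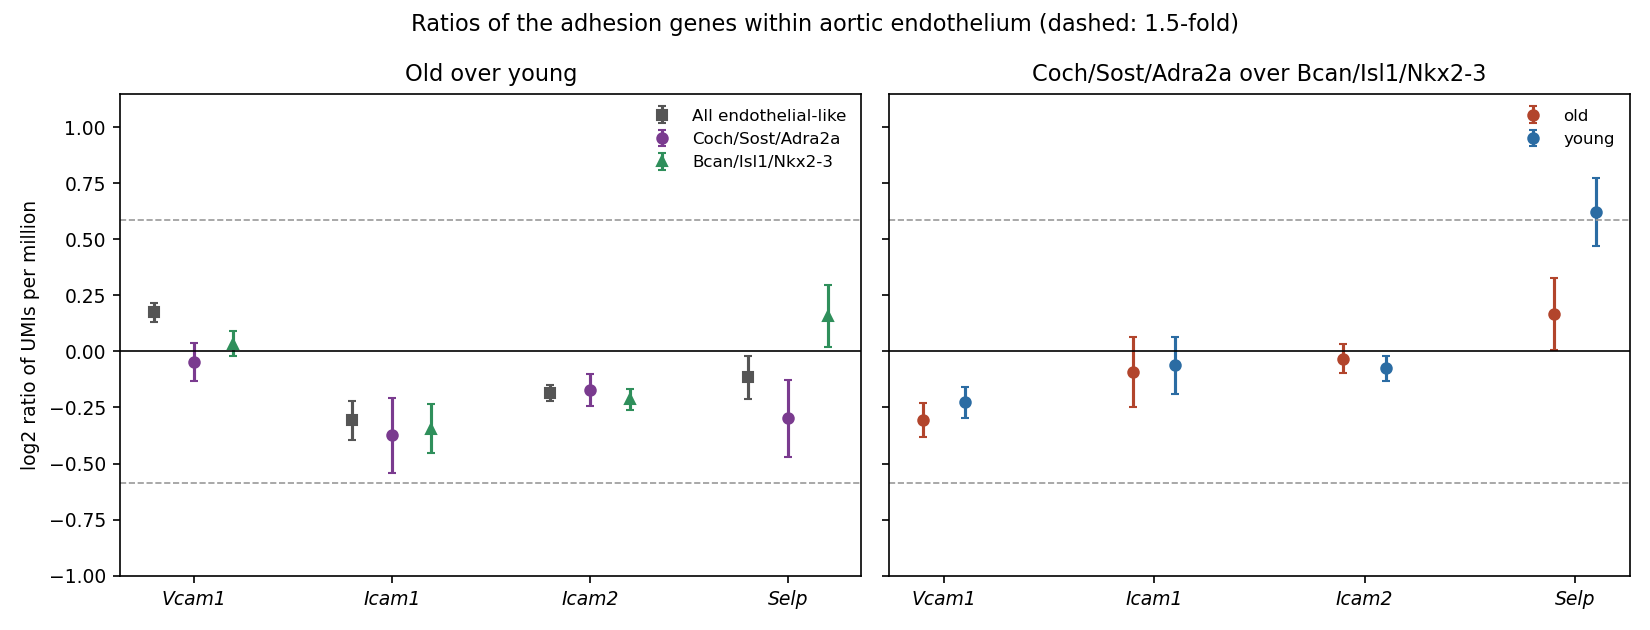
Log2 ratios of CPM for 4 adhesion genes, old over young on the left (all endothelial-like cells and each subtype) and Coch/Sost/Adra2a over Bcan/Isl1/Nkx2-3 cells on the right (old, young). Points are ratios of summed counts, bars exact 95% counting intervals and dashed lines 1.5-fold: Icam1 and Icam2 lie below 0 in all 3 old over young series, Selp lies on opposite sides of 0 in the 2 subtypes, and its young subtype ratio of 0.62 alone passes a dashed line.

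Outside the endothelium the genes were counted at lower levels. Endothelial-like cells exceeded fibroblast-like cells (572 old, 239 young) in Vcam1 by 6.77-fold in the old library (6.09 to 7.56) and 11.8-fold in the young library (9.82 to 14.2). Icam1 was higher by 6.49-fold in the old library and 7.09-fold in the young library, Icam2 by 8.99-fold and 23.1-fold, and Selp by 12.2-fold and 23.7-fold. All of the 5 measured genes in the old library and 4 of 4 in the young library were higher in endothelial-like cells by 1.5-fold, against 36.6% of all genes in the old library and 29.4% in the young library, with 16.5% of genes lower by that much in the old library and 19.7% in the young library. Sele had 0 UMIs in old fibroblast-like cells. With 3 counts over the class put in place of that 0, it was 1.59-fold higher in old endothelial-like cells. Its counting interval starts at 1.19-fold, and 5 of 8 alternatives were past 1.5-fold.

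In droplet data RNA free in the suspension gives UMIs in cells that do not make it. Icam2 in erythroid-like cells was taken as a guide to such UMIs. Endothelial markers summed to 2331 CPM in the 37 old erythroid-like cells, where erythroid markers summed to 773673 CPM. The doublet calls were too few to count as a working filter, and what droplets with 2 cells gave was not tested. At 3100 UMIs per cell, 36.0% of 25 old erythroid-like cells (18.0 to 57.5%) held an Icam2 UMI and 24.0% (9.36 to 45.1%) a Vcam1 UMI. Fibroblast-like cells held an Icam2 UMI in 22.8% of old and 11.7% of young cells and a Vcam1 UMI in 27.5% of old (23.5 to 31.8%) and 18.0% of young cells. The median depth before thinning was 4830 UMIs in old and 8440 UMIs in young fibroblast-like cells, and 4152 UMIs in old erythroid-like cells. The old shares are not above the interval in old erythroid-like cells, which should lack both genes, and by themselves are not read as expression. The young library held 1 erythroid-like cell, so its shares have no background of their own and are not read as expression either. UMIs of a gene per Icam2 UMI are a second measure, since 1 source of free RNA keeps its genes in 1 ratio. For Vcam1 it was 0.85 in old endothelial-like cells (0.83 to 0.87), against 1.13 in old fibroblast-like cells (0.96 to 1.32). In the young library it was 0.66 in endothelial-like cells (0.64 to 0.68), against 1.30 in fibroblast-like cells (0.98 to 1.72). For Icam1 it was 0.18 in old endothelial-like cells (0.17 to 0.19), against 0.25 in old fibroblast-like cells (0.19 to 0.32), and in the young library 0.19 in endothelial-like cells (0.19 to 0.20), against 0.63 in fibroblast-like cells (0.45 to 0.89). Taken over the whole class, both genes were thus more frequent relative to Icam2 in fibroblast-like cells than in endothelial-like cells. The 2 fibroblast-like clusters were not alike in this. In the old library cluster 5 (491 cells) had 265 Vcam1, 58 Icam1 and 272 Icam2 UMIs, and cluster 6 (81 cells) had 81, 18 and 35. In the young library cluster 5 (137 cells) had 66, 19 and 59 UMIs, and cluster 6 (102 cells) had 55, 40 and 34. Old cells of other classes gave further values. For Icam1 the ratio was 0.18 in old T or NK-like cells (0.09 to 0.32) and 0.48 in old macrophage-like cells (0.35 to 0.65), so that Icam1 in the 155 old macrophage-like cells (83.6 CPM) exceeded its endothelial ratio. Vcam1 gave 0.89 UMIs per Icam2 UMI in old macrophage-like cells and 0.80 in erythroid-like cells. Selp gave 0.15 in old endothelial-like cells and 0.15 in old macrophage-like cells (0.09 to 0.24).

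**Figure D2:**
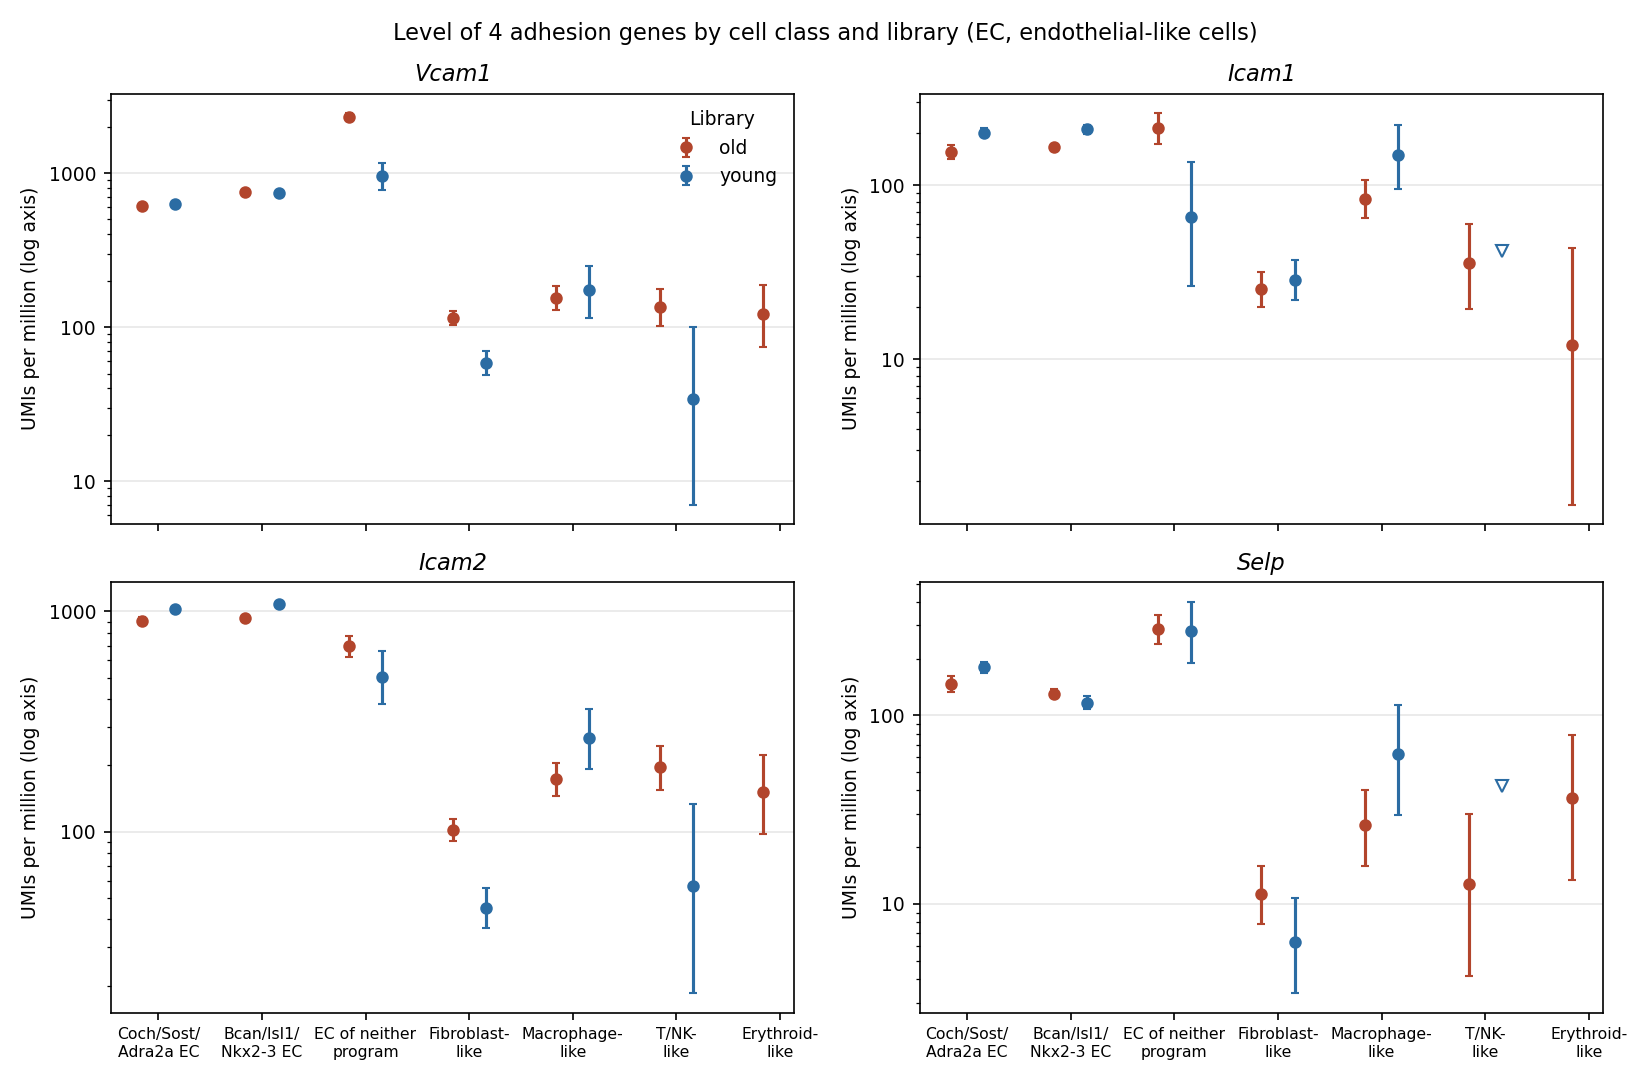
Level of Vcam1, Icam1, Icam2 and Selp (CPM, log axis, a different range in each panel) by cell class, old left of young. Points are 1 library each, bars exact 95% counting intervals and open triangles the upper bound where no UMI was counted; classes of fewer than 10 cells and the smooth muscle-like class are left out. Vcam1 is at 2309 CPM in old endothelial cells of neither program, where Icam2 is at 695 CPM.

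The share of endothelial-like cells with a UMI was compared at equal depth. At 3100 UMIs per cell, which left out 567 old and 105 young cells, Vcam1 was seen in 80.6% of old cells (78.8 to 82.4%) and 75.7% of young cells (72.9 to 78.3%). Icam1 was seen in 37.4% of old cells (35.2 to 39.6%) and 43.6% of young cells (40.5 to 46.7%). Icam2 was seen in 94.3% of old and 93.4% of young cells, and Selp in 32.4% of old and 32.8% of young cells. Without thinning, at median depths of 5047.5 UMIs in old and 7372.5 UMIs in young cells, Vcam1 was seen in 85.9% of old and 89.96% of young cells and Icam1 in 52.1% of old and 68.6% of young cells. Icam2 was seen in 96.3% of old and 97.0% of young cells, and Selp in 47.8% of old and 59.2% of young cells.

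The 4 genes were combined in single cells much alike in both subtypes. All 4 were seen together in 9.40% of old and 12.4% of young Coch/Sost/Adra2a cells and in 9.44% of old and 10.8% of young Bcan/Isl1/Nkx2-3 cells at equal depth. None of the 4 was seen in at most 0.722% of cells of any of these groups. Icam1 was seen in 38.6% of old Bcan/Isl1/Nkx2-3 cells with a Vcam1 UMI (35.8 to 41.4%) and 31.0% of those without (25.6 to 36.7%). In young Bcan/Isl1/Nkx2-3 cells the shares were 44.2% with (39.4 to 49.0%) and 35.5% without (27.1 to 44.6%), and in Coch/Sost/Adra2a cells the intervals also overlapped.

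Vcam1 was spread over cells less evenly than the other genes. The variance over the mean of its UMIs at equal depth was 2.11 in old and 2.97 in young Coch/Sost/Adra2a cells, 2.97 in old and 5.75 in young Bcan/Isl1/Nkx2-3 cells, and 17.0 in the 41 old cells of neither program deep enough to be thinned. Without the 7 cells of each group that held 15 or more Vcam1 UMIs it was 2.03 in young Bcan/Isl1/Nkx2-3 cells and 3.34 in old cells of neither program. For Icam2 it lay between 1.19 and 1.26 in the 2 subtypes of both libraries, where 1 is the value of chance counting. The richest cell held 170 Vcam1 UMIs in the old library and 93 in the young library. At least 10 thinned Vcam1 UMIs were found in 30 of 1473 old and 13 of 554 young Bcan/Isl1/Nkx2-3 cells, in 4 of 351 old and 7 of 426 young Coch/Sost/Adra2a cells, and in 9 of the 41 old cells of neither program.

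**Figure D3:**
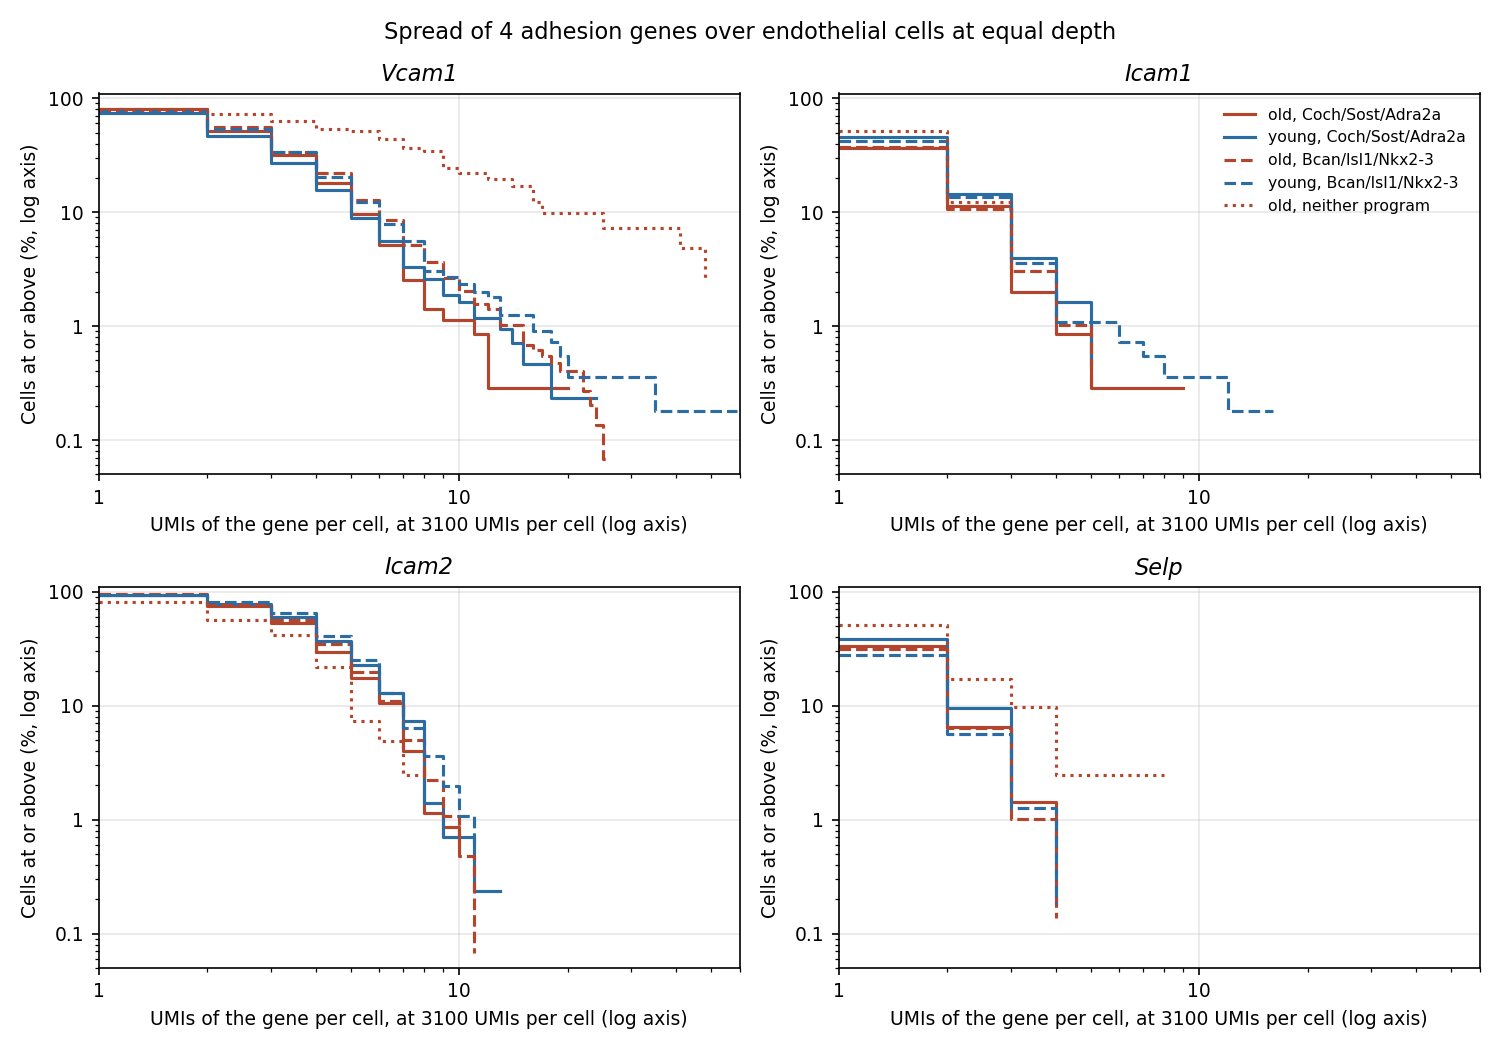
Share of endothelial-like cells (percent, log axis) with at least a given number of UMIs of Vcam1, Icam1, Icam2 or Selp (log axis) after thinning each cell to 3100 UMIs, by subtype and library. The Vcam1 curves run furthest to the right, and 17.1% of the 41 old cells of neither program reach 15 UMIs, against 0.679% of old and 1.26% of young Bcan/Isl1/Nkx2-3 cells.

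Cells of neither program were a mixed group. Lymphatic markers (6 of 6 seen in both libraries) summed to 2423 CPM in the 49 old cells and 1917 CPM in the 15 young cells, against 37.5 CPM in old Coch/Sost/Adra2a and 32.05 CPM in old Bcan/Isl1/Nkx2-3 cells. Smooth muscle markers summed to 3071 CPM in the old cells (7 of 8 seen, Des at 0) and 2226 CPM in the young cells (2 of 8 seen). The lymphatic signal and the Vcam1 signal lay in different cells: the 8 old cells with 5 or more lymphatic UMIs had 345 CPM of Vcam1, and the other 41 had 2506 CPM. Selp was split in the same way, with 49.2 CPM in those 8 cells (2 UMIs) and 310 CPM in the other 41. Smooth muscle markers at 5 or more UMIs were found in 21 of the 49 old cells, and their part in the Vcam1 level was not tested.

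The cells richest in Vcam1 were also richer in Icam1. There were 27 endothelial-like cells with 15 or more thinned Vcam1 UMIs, 18 old and 9 young, a limit chosen after the data were seen. Of the 18 old cells 7 were of neither program (cluster 9), and of the 9 young cells 7 lay in cluster 11. They are set against all other endothelial-like cells of their library, so the make-up of the 2 sides differs. Icam1 stood at 328 CPM in the 18 old cells and 164 CPM in the other old cells, 2.003-fold. It stood at 1280 CPM in the 9 young cells and 195 CPM in the other young cells, 6.56-fold, and at 3.78-fold without the 1 cell that gave 41 of the 81 UMIs. Selp stood at 349 CPM in the 18 old cells and 137 CPM in the others, and at 190 CPM in the 9 young cells (12 UMIs) and 149 CPM in the others. Icam2 was no higher in them, at 0.80-fold in old and 0.99-fold in young cells.

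Some chemokines and NF-kB genes were also higher in those 27 cells. Cx3cl1, the membrane-held chemokine fractalkine, was 4.39-fold higher in the old cells (18 UMIs) and 8.87-fold higher in the young cells (16 UMIs). Cxcl16, another membrane-held chemokine, was 4.80-fold higher in the old cells (39 UMIs) and 2.77-fold higher in the young cells (11 UMIs). Relb, an NF-kB subunit, was 3.39-fold higher in old and 3.18-fold higher in young cells, on 12 old and 4 young UMIs, and the young interval holds equality. Of 10 chemokines measured 8 were higher in the 27 cells by 1.5-fold. Another, Ccl7, had 0 UMIs in the 27 cells and 172 UMIs in the other cells. Of 15 cytokine receptor and NF-kB genes 7 were higher and 1 lower. These stand against 16.7% of 12005 genes higher and 34.1% lower, where a gene with 0 UMIs in the 27 cells counts as lower. By library 6 of 9 chemokines were higher in the old cells, with Ccl7 at 0 UMIs. In the young cells 4 of 6 were higher and 1 lower (Cxcl12, 0.60-fold), with Ccl5 at 0 UMIs. The share of all genes was taken over the 27 cells together. The counts by library therefore have no such share beside them and are not read as a result. Several of the 8 rest on 1 cell or a few UMIs. The 52 UMIs of Ccl5 in these cells included 50 in 1 cell, Cxcl1 was 2.98-fold higher but 0.96-fold without 1 cell that gave 18 of its 26 UMIs, and Ccl2 and Cxcl10 had 1 and 3 UMIs. Rela, another NF-kB subunit, was 2.44-fold higher in the old cells (26 UMIs). It was 1.88-fold higher in the young cells (9 UMIs), where the interval holds equality. In the old cells Nfkb1 was near equality at 1.05-fold, with Nfkb2 at 1.24-fold and Tnfaip3 at 0.89-fold (1 UMI). In the young cells Nfkb1 was 2.78-fold and Nfkb2 10.1-fold higher, on 9 UMIs each, and Nfkbia was 1.91-fold higher (53 UMIs). Tnfaip3 was 16.2-fold higher in the young cells, on 7 UMIs, 6 of them in 1 cell.

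Markers of other cells moved with this pattern in the old library. Smooth muscle markers summed to 2571 CPM in the 18 old cells and 367 CPM in the other old cells, but to 111 CPM in the 9 young cells and 289 CPM in the other young cells. Fibroblast markers summed to 790 CPM in the 18 old cells and 427 CPM in the others. T or NK markers summed to 140 CPM in the 18 old cells and 8.12 CPM in the others. Endothelial markers were lower, at 7211 CPM in the 18 old cells and 11241 CPM in the other old cells. In the young library they were at 10195 CPM in the 9 cells and 11855 CPM in the others. Only 3 of the 18 old and 2 of the 9 young cells held at most 1 UMI of another class's markers. In the 2 young cells among them Icam1 was 8.59-fold above the like cells (4.59 to 14.9, 14 UMIs), and in the 3 old cells it was 1.26-fold (0.15 to 4.62, 2 UMIs). Median depth was 7103.5 UMIs in the 18 old cells and 6337 UMIs in the others, and 6325 UMIs in the 9 young cells and 7798.5 UMIs in the others.

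**Figure D4:**
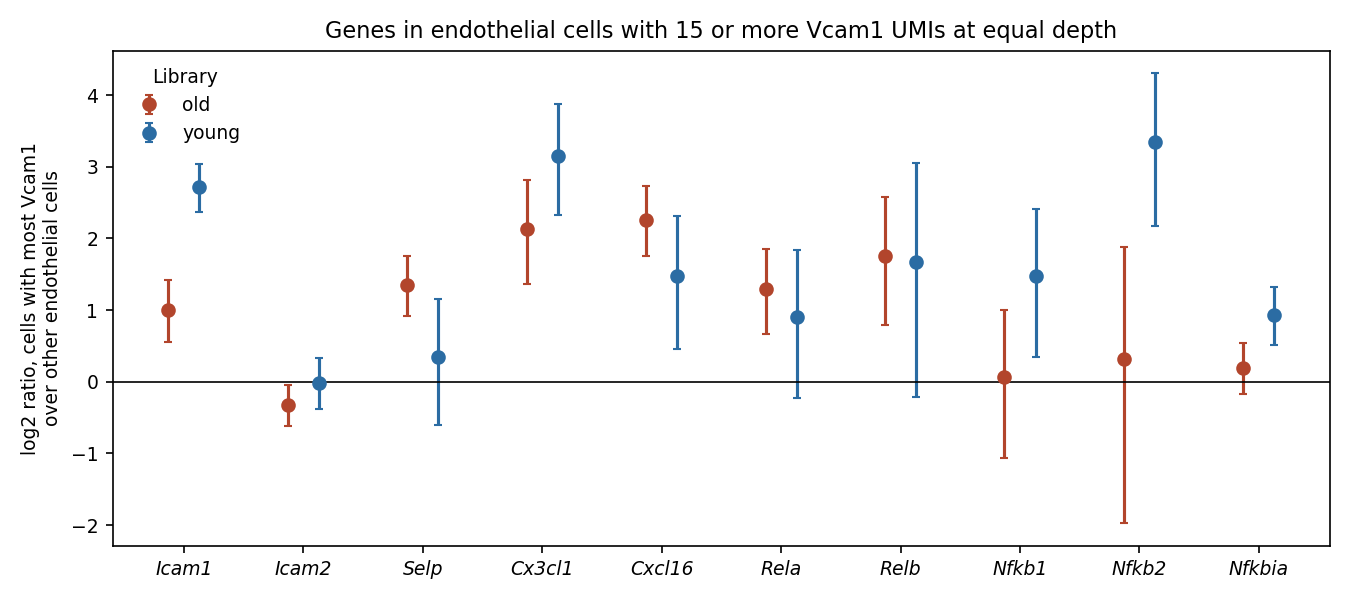
Log2 ratio of CPM in endothelial-like cells with 15 or more Vcam1 UMIs at equal depth over the other endothelial-like cells, for 3 adhesion genes, 2 chemokines and 5 NF-kB genes, old left of young. Points rest on 18 old and 9 young cells and bars are exact 95% counting intervals: Icam1, Cx3cl1 and Cxcl16 lie above 0 in both libraries, and Icam2 does not.

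Apart from those few cells Vcam1 and Icam1 were loosely linked. Across cells of 1 library the Pearson correlation of their thinned UMIs was 0.25 in old Coch/Sost/Adra2a cells (n = 351), 0.11 in young Coch/Sost/Adra2a cells (n = 426), 0.15 in old Bcan/Isl1/Nkx2-3 cells (n = 1473) and 0.56 in young Bcan/Isl1/Nkx2-3 cells (n = 554). Without the 5 cells richest in Vcam1 the last value was 0.14, and the others were between 0.15 and 0.17. Cells of a library share their preparation and are not replicates, and these values are descriptions.

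Other parts of the adhesion cascade were read from lists, all chosen with earlier results of these data known. Their counts stand against 9.23% of all genes higher and 7.14% lower in old endothelial-like cells, and in lists this short 1 gene is near those shares. Of 8 measured carriers and makers of selectin-binding sugars, 1 was higher in old endothelial-like cells by 1.5-fold and 2 were lower, with a median of 0.01. The higher one was Selplg, on 20 old and 5 young UMIs, a gene over 3 times higher in another class. The lower ones were Emcn, a sialomucin that keeps leukocytes off, at -1.19 (-1.34 to -1.04) with 627 old and 1001 young UMIs, and Cd24a, a P-selectin ligand, at -0.66 (-0.71 to -0.60). Emcn was lower in both subtypes, at -1.43 in Coch/Sost/Adra2a and -1.34 in Bcan/Isl1/Nkx2-3 cells. Among the 13 measured genes of junctions and transmigration 0 were higher and 3 lower, among them Mcam at -0.85 and Bst1 at -0.97 (56 old and 77 young UMIs).

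Of 11 anchors that tie ICAM-1 and VCAM-1 to actin, 0 were higher and 1 lower: Actn1, an alpha-actinin, at -0.59 (-0.67 to -0.51), while Slc9a3r2 stood at 0.33 and Msn, moesin, at 0.19. Of 15 cytokine receptor and NF-kB genes 0 passed 1.5-fold in either direction over endothelial-like cells, with a range from 0.32 (Relb) to -0.39 (Ifngr2). Of 12 factors reported to act on these promoters 1 was higher, Nkx2-3, at 1.03, and it is one of the markers that define the subtypes. The 2 lower ones were Nr4a1 at -1.26 and Jun at -0.68, both also among the handling genes. Of 9 endothelial brakes on adhesion 0 passed, and Klf4 and Tek, the receptor of angiopoietins, were at -0.41 and -0.45.

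Of 10 measured chemokines that endothelium can show to leukocytes, 5 were higher in old endothelial-like cells and 1 lower, against 9.23% of all genes higher and 7.14% lower. Cxcl9, a chemokine that interferon gamma induces, had 87 old and 0 young UMIs, 20.3-fold higher with 3 counts put in place of the 0. Those 87 UMIs lay in 11 of the 2432 old cells, 49 of them in 1 cell. Cxcl10 and Ccl5, also among the 5, rest on few cells too. Cxcl10 had 20 old and 9 young UMIs. Without the richest cell of each library it stood at 0.96 CPM in old and 0.69 CPM in young cells. For Ccl5 1 old cell gave 50 of 146 UMIs and 1 young cell gave 59 of 61. Ccl2 had 63 old and 5 young UMIs, and Cxcl1 was lower, at -1.34 (-1.53 to -1.16). In Coch/Sost/Adra2a cells 1 of 7 was higher and 3 were lower, against 8.55% and 8.06% of genes. One of the lower ones was Ccl5, for which 1 young endothelial-like cell gave 59 of 61 UMIs. In Bcan/Isl1/Nkx2-3 cells 4 of 10 were higher and 0 lower, against 9% and 7.03% of genes. Macrophage markers moved with the chemokines: they summed to 108 CPM in old endothelial-like cells (9 of 9 seen) and 10.8 CPM in young endothelial-like cells (6 of 9 seen, with Adgre1, Csf1r and Fcgr1 at 0), and their part was not tested. Ccl2 and Cxcl1 were over 3 times higher in another class than in endothelial-like cells, and what free RNA adds to them was not tested.

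Some genes of these lists also differed between the subtypes, and those named here were picked from the extremes of their lists. In both libraries 2 of 13 genes of junctions and transmigration were higher in Coch/Sost/Adra2a cells by 1.5-fold and 2 lower. Of 7 carriers and makers of selectin-binding sugars 0 were higher and 1 lower. Of 9 brakes 0 were higher, with 2 lower in the old library and 3 in the young library. Jam2, a junctional adhesion molecule that binds leukocyte integrins, was lower in Coch/Sost/Adra2a than in Bcan/Isl1/Nkx2-3 cells, at -0.90 in the old library (-1.06 to -0.74) and -1.07 in the young library (-1.22 to -0.93). Procr, the endothelial protein C receptor, stood at -1.08 in the old library (-1.22 to -0.94) and -0.92 in the young library (-1.03 to -0.81). Cd34, a sialomucin that was over 3 times higher in another class, stood at -1.03 in the old library and -0.86 in the young library. Cxcl1 was higher in Coch/Sost/Adra2a cells, by 1.74-fold in the old library and 3.71-fold in the young library. Of the chemokines, 2 of 9 were higher and 3 lower in the old library, and 4 of 6 higher and 0 lower in the young library. These list counts stand against 5.19% of all genes higher and 8.62% lower in the old library, and 5.43% and 7.28% in the young library.

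RNA of several matching receptors was counted at higher levels in the immune cells of the old preparation than in its endothelial cells. Itga4, the integrin chain that binds VCAM-1, had 48.3 CPM in 155 macrophage-like cells (34.0 to 66.6) and 51.1 CPM in 123 T or NK-like cells (31.2 to 78.9), a cluster that also holds B cell markers. In endothelial cells it had 0.37 CPM in Coch/Sost/Adra2a and 0.97 CPM in Bcan/Isl1/Nkx2-3 cells. Itgb1, an integrin chain of the same list, went the other way. It had 422 CPM in Coch/Sost/Adra2a and 425 CPM in Bcan/Isl1/Nkx2-3 cells, against 150 CPM in macrophage-like and 128 CPM in T or NK-like cells. Itgae had 0 UMIs in macrophage-like and 2 UMIs in T or NK-like cells. Itgb2, the shared chain of the ICAM-1 receptors, had 119 CPM in macrophage-like and 51.1 CPM in T or NK-like cells, and its partner Itgam had 118 CPM in macrophage-like and 2.56 CPM in T or NK-like cells. Selplg, the main P-selectin ligand, had 112 CPM in macrophage-like and 199 CPM in T or NK-like cells. Itgb7, which pairs with Itga4 to bind MAdCAM-1, had 135 CPM in T or NK-like cells (101 to 177) and 18.3 CPM in macrophage-like cells. The young library held 13 macrophage-like and 10 T or NK-like cells, and its values for these receptors are not given.

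Over 10 combinations of class and library, 5 of them endothelial, the genes with the most like profile of 10873 were Csrp1, Krt18 and Plcb1 for Vcam1 (Pearson r 0.98, 0.98 and 0.97), Hist1h1c, Arrb1 and Afap1l1 for Icam1 (0.98 each), Myzap, Ccm2l and Vwf for Icam2 (1.00, 1.00 and 0.99) and Tspan2, Rai14 and Krt18 for Selp (0.99 each). All points share 2 libraries and the split into endothelial and other classes, and how much of each r that split gives was not tested. Within that measure Selp was the member closest to Vcam1 (0.95, rank 14 of all genes), and Icam1 was farther off (0.87, rank 289).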

How the data were processed

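Both deposited tables are raw UMI counts, 1 per library, as whole numbers. Cell Ranger and GRCm38 are named in the submitters' processing notes; the version, the annotation and the strand setting could not be learned from the labels or headers. Cells needed 200 genes and no more than 10% mitochondrial UMIs, which removed 72 old and 1 young barcode. Scrublet called 6 old (0.180%) and 6 young (0.440%) doublets, too few to count as a working doublet filter. The 3330 old and 1359 young cells were normalized to 10000 UMIs and clustered with scanpy 1.11.5 (2000 variable genes without the 6 members, 30 components, 15 neighbours, Leiden resolution 0.5), with no batch correction. Clusters were named from fixed markers; endothelial subtypes by the trio seen in a 1.5 times larger mean share of cells, a rule set after seeing the clusters. Counts were summed per class and library. Levels carry exact Poisson, ratios exact conditional binomial and shares exact Clopper-Pearson intervals (95%). UMIs of 1 cell are not independent, so intervals can be too narrow for genes concentrated in few cells. For shares, cells were thinned to 3100 UMIs. The ratio code was tested on simulated data. The 6 members, the lists, the limit of 15 Vcam1 UMIs and the handling genes were chosen with earlier results of these data known. Named genes are the members, the 2 highest and 2 lowest of each list per comparison, the 3 most like genes and markers. Library totals were 19171045 old and 12576023 young UMIs. The software was pandas 2.3.3, scipy 1.17.1, numpy 2.4.6 and Python 3.11.15.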

Additional observations from a re-analysis of the deposited data

Results flagged for a closer look

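Selp stood on opposite sides of equality in the 2 endothelial subtypes. Old over young it was -0.30 on the log2 scale in Coch/Sost/Adra2a cells and 0.16 in Bcan/Isl1/Nkx2-3 cells, a difference of -0.45 between the subtypes, and both counting intervals leave out 0. With 1 library per age the difference between the subtypes was not tested. The value in Coch/Sost/Adra2a cells lay between -0.30 and -0.09 over the 12 alternatives, and that in Bcan/Isl1/Nkx2-3 cells between 0.09 and 0.19. Among the old Bcan/Isl1/Nkx2-3 cells, Selp was at 151 CPM in cluster 4, 126 CPM in cluster 2 and 99.4 CPM in cluster 3. In young cluster 11 it was at 116 CPM.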

How the results depend on the processing

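No paired analysis was possible because each age has 1 library and no test was made. Over 31 ratios of the adhesion genes, 366 values under other settings were computed. Of these, 329 stayed inside the counting interval of the reported value, 31 moved outside it and 6 changed sign from a value whose interval left out 0. Leaving out endothelial cells with 2 or more UMIs of other classes' markers turned old over young to -0.026 for Vcam1 and 0.022 for Selp in all endothelial-like cells, and to 0.030 for Icam2 in Coch/Sost/Adra2a cells. The young mix of subtypes, added after seeing the data, gave -0.0024 for Vcam1. Vcam1 in Coch/Sost/Adra2a over Bcan/Isl1/Nkx2-3 cells, old library, was 0.0056 under a stricter cell filter (500 genes or more, mitochondrial UMIs up to 5%) and 0.18 with the members in the clustering.

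The number of members past 1.5-fold, old over young, was 1 in all endothelial-like cells, and 0 without cells carrying other markers and with cells thinned to equal depth, an alternative added after seeing the data; in both Sele had under 20 UMIs. Over the 2 subtypes it was 1 (Sele), and 0 under 8 settings: the stricter filter, doublet calls kept, cells with other markers left out, Leiden resolution 1.0, subtype by each cell's own markers, the mean over cells, the dominant cell left out and thinned cells, where Sele had under 20 UMIs or stood below 1.5-fold. Between subtypes it was 1 (Selp, young), 2 under the stricter filter and 0 with thinned cells. For endothelial-like over fibroblast-like cells it was 9, and 8 or 9 under every alternative run. Leaving out the 11 shared barcodes, added after seeing the data, changed none of these 4 counts. Without the richest cell, also added after seeing the data, Vcam1 in cells of neither program was 1989 CPM in the old library and 697 CPM in the young library. Depth limits Sele and Madcam1, and 15 young cells of neither program, 13 macrophage-like and 10 T or NK-like cells carry wide intervals.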
